A study of Mus musculus with 12 samples.

Results

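The genes described here encode 8 kinases that phosphorylate SR proteins, the serine- and arginine-rich factors of pre-mRNA splicing: the CDC2-like kinases Clk1, Clk2, Clk3 and Clk4, the SR protein kinases Srpk1, Srpk2 and Srpk3, and the dual-specificity kinase Dyrk1a. They were taken by gene name from the 54532 genes of the count and FPKM tables, and all 8 names were found there once. Transcripts were measured in 12 bulk RNA-seq libraries of cells sorted from postnatal day 1 mouse testes, which form 4 groups of 3. All mice carried the Tg(Pou5f1-EGFP)2Mnn transgene, with GFP under the promoter of Pou5f1 (OCT4), a pluripotency gene that newborn germ cells still express, and GFP+ cells were collected as germ cells and GFP- cells as somatic cells. The GFP- fraction is a mixture of the somatic cell types of the testis. In the dex groups, dexamethasone, a synthetic agonist of the glucocorticoid receptor, was given to dams by intraperitoneal injection at E17.5 and E18.5 and to pups under the skin on the day of birth (postnatal day 0), always at 10 μg per g. The saline groups received the vehicle on the same schedule. Each replicate was pooled from at least 2 litters dosed independently, and the RNA was selected on poly-dT beads.

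SRPKs act mainly in the cytoplasm, where phosphorylation of the arginine-serine (RS) domain lets an SR protein bind its import receptor and enter the nucleus. CLKs act in the nucleus, where further phosphorylation releases SR proteins from nuclear speckles to sites of splicing. Dyrk1a, a nuclear kinase known for its dosage sensitivity in brain development, phosphorylates several splicing factors, and transcripts of Clk1 and Clk4 are known for retained introns that hold the RNA in the nucleus.

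Because dex acts through a receptor that binds DNA, the promoters of the kinase genes were searched for the letters of its recognition sequence. RefSeq start sites on GRCm38 gave 11 promoters for 7 of the 8 genes, each 300 bases long and mostly upstream of the start, and no entry for Clk1. The full palindrome of the glucocorticoid response element, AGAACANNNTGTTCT on either strand, was in 0 of the 11 and in 0.00913% of all 32851 promoters. One arm of it, AGAACA on either strand (read as TGTTCT on the other), was in 3 of the 11 promoters and in 19.0% of all promoters. The cyclic AMP response element TGACGTCA was in 1 of the 11 and in 1.79% of all promoters, and the E-box CACGTG was in 1 of the 11 and in 7.15%. The 5 matches are shown on the plus strand with the matched letters in capitals and 9 bases on each side, since they are the only places where these promoters held the letters searched.
Clk4, one arm of the response element, chr11:51262938-51262961: gttcacctaAGAACAgaaagaacc
Dyrk1a, one arm of the response element, chr16:94570781-94570804: ggaggaggcTGTTCTcctcctcct
Srpk3, one arm of the response element, chrX:73774290-73774313: ccccctcccTGTTCTgcatacctt
Clk4, cyclic AMP response element, chr11:51263040-51263065: cgccgtcccTGACGTCAcagacccct
Clk2, E-box, chr3:89164627-89164650: ctcaacaaaCACGTGacaagctcc
The first matched base lay at -167, -117, -106, -65 and -159 from the RefSeq start site, in that order. A match of letters is not a measured binding site.

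Library totals lay between 18459692 and 25178477 counts, and no replicates were copies of each other. Levels are given as CPM, counts scaled to a common library size with TMM factors from the 12 libraries. The summed level of 10 germ cell markers was 3097 to 3321 CPM in germ libraries and 8.21 to 9.71 CPM in somatic libraries, where Dppa3 was at 0 counts. The summed level of 8 Sertoli cell markers was 5835 to 6584 CPM in somatic libraries and 50.8 to 90.9 CPM in germ libraries. In bulk samples, fewer cells of one type and less RNA per cell cannot be told apart, so a difference between the GFP- groups can be either. Replicates were separate pools of animals, and p-values measure the spread between these pools.

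Germ cells and somatic cells differed in the levels of most of these kinases, and 7 of the 8 were well detected in both. Clk1 and Clk4, a close pair of nuclear CLKs, and Clk2 were higher in somatic cells, while Srpk1, Srpk2 and Dyrk1a were higher in germ cells. The widest of these differences with ample counts was that of Clk1, which was 5.61-fold higher in somatic cells in saline. Srpk3 was close to the detection limit in germ cells. edgeR's quasi-likelihood test with Benjamini-Hochberg adjustment called 7 of the 8 genes in saline, 3 with the higher level in germ cells and 4 with the higher level in somatic cells. The populations differed so widely that 76.5% of all genes tested were called, 39.8% upward in germ cells and 36.7% upward in the soma, so the count of members called was near that of genes at large. For all 8 genes the 3 germ and 3 somatic libraries were without overlap, against 79.7% of all genes tested.

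**Figure D1:**
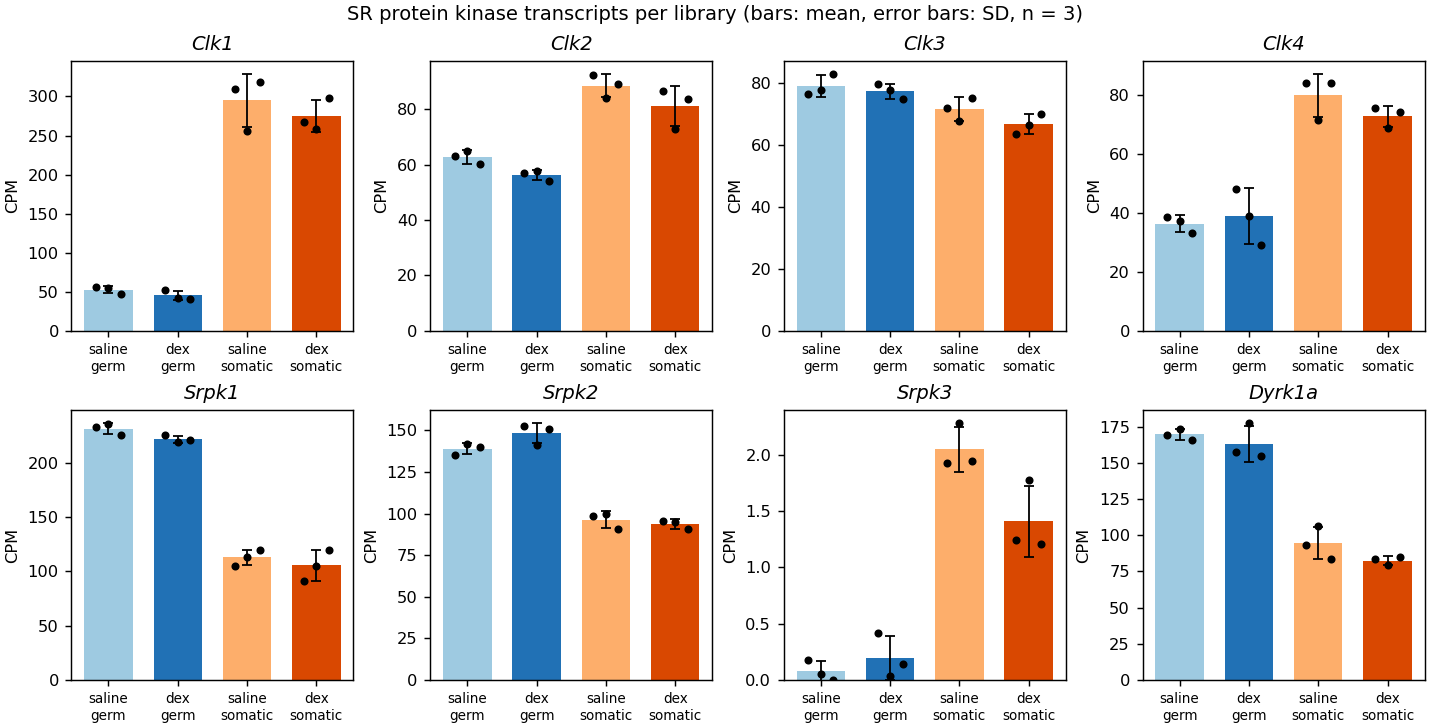
Level of each of the 8 kinase genes in CPM in saline germ, dex germ, saline somatic and dex somatic cells, with 1 point per library, bars for the means and error bars for the SD (n = 3). Germ and somatic libraries of the same treatment do not overlap for any of the 8 genes, and each panel has its own scale. Dex and saline libraries of one population overlap except for Clk2 and Srpk1 in germ cells and Srpk3 in somatic cells (means of 2.05 CPM with saline and 1.41 CPM with dex).

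Clk1 (ENSMUSG00000026034, GRCm38 chromosome 1, 58410189 to 58424066, minus strand) stood at 56.4, 54.5 and 47.2 CPM in the saline germ libraries and at 309.5, 256.1 and 319.2 CPM in the saline somatic libraries. Every somatic library lay far above every germ library. The log2 fold change of germ over somatic cells was -2.49 ± 0.11 (SE; edgeR adjusted p = 1.00e-09). In the dex libraries it stood at 52.3, 42.2 and 41.04 CPM in germ libraries against 267.3, 258.8 and 298.5 CPM in somatic cells, a log2 fold change of -2.61 ± 0.11 (edgeR adjusted p = 4.31e-10). A difference at least as far from 0 was found for 26.95% of all genes tested in saline.

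Clk4 (ENSMUSG00000020385, chromosome 11, 51261730 to 51281766, plus strand), the nearest relative of Clk1, was also higher in somatic cells. Its saline levels were 38.6, 37.1 and 33.1 CPM in germ libraries against 84.0, 71.4 and 84.2 CPM in somatic cells. The groups did not overlap, and the somatic level was 2.20-fold higher (log2 fold change of germ over somatic cells -1.14 ± 0.11, edgeR adjusted p = 1.29e-06). With dex the germ libraries spread more widely, at 48.2, 39.1 and 29.2 CPM, while the somatic libraries stood at 75.6, 68.7 and 74.1 CPM (log2 fold change -0.91 ± 0.15, edgeR adjusted p = 0.000165).

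Clk2 (ENSMUSG00000068917, chromosome 3, 89164795 to 89176921, plus strand), which like its relatives phosphorylates RS domains in the nucleus, was the third CLK gene higher in somatic cells. Its saline levels were 63.2, 64.95 and 60.2 CPM in germ libraries against 92.4, 84.05 and 89.3 CPM in somatic cells. All germ libraries lay below all somatic libraries, by a log2 fold change of -0.50 ± 0.09 (edgeR adjusted p = 0.000228). The dex libraries gave -0.53 ± 0.10 (edgeR adjusted p = 0.00027).

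Clk3 (ENSMUSG00000032316, chromosome 9, 57750624 to 57765860, minus strand) was the member whose populations differed least. Its saline levels were 76.4, 77.7 and 82.9 CPM in germ libraries against 72.03, 67.6 and 75.2 CPM in somatic cells, so that the lowest germ library stood just above the highest somatic library. The log2 fold change of 0.14 ± 0.09 did not pass in saline (edgeR adjusted p = 0.168), where DESeq2 gave an adjusted p of 0.0416. In dex it was 0.21 ± 0.09 and passed narrowly (edgeR adjusted p = 0.0434), and it no longer passed without any one of 5 of the 6 libraries, with edgeR adjusted p from 0.0512 to 0.152. Scaling by library totals rather than TMM shifted the median over all genes from 0.07 to 0.21 on the log2 scale in saline and from 0.12 to 0.30 in dex, so the Clk3 difference was of the size of that shift. Exons of Clk3 share 1284 bases, 15.2% of its length, with Edc3 on the opposite strand, and Edc3 had 15847 counts over the 12 libraries against 18737 for Clk3. The strand setting of the counting was not given in the sources used here, so it is not known how reads of those bases were assigned. Their part in the level of Clk3 was not measured.

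Srpk1 (ENSMUSG00000004865, chromosome 17, 28587648 to 28622709, minus strand), the most studied of the kinases that prepare SR proteins for import, stood at 233.0, 236.1 and 225.8 CPM in saline germ libraries against 105.3, 113.7 and 119.6 CPM in saline somatic cells. Its germ level was 2.05-fold higher, with no overlap between libraries (log2 fold change 1.03 ± 0.08, edgeR adjusted p = 1.31e-07). The dex libraries showed 225.6, 219.3 and 221.2 CPM in germ libraries against 91.5, 105.1 and 119.7 CPM in somatic cells (log2 fold change 1.07 ± 0.10, edgeR adjusted p = 6.27e-07). Both somatic groups were more spread than the germ groups, with SDs of 7.20 and 14.1 CPM against 5.26 and 3.26 CPM.

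Srpk2 (ENSMUSG00000062604, chromosome 5, 23503264 to 23684617, minus strand), the paralog best known from neurons, followed the same direction with a smaller difference. It stood at 135.4, 141.6 and 140.3 CPM in saline germ libraries against 98.7, 99.99 and 90.5 CPM in saline somatic cells, again without overlap. The log2 fold change was 0.53 ± 0.08 (edgeR adjusted p = 6.20e-05), and 0.66 ± 0.08 in dex (edgeR adjusted p = 7.04e-06). Of its exon bases, 6.99% are shared with Kmt2e on the opposite strand.

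Srpk3 (ENSMUSG00000002007, chromosome X, 73774405 to 73778925, plus strand), known as the muscle member of the family, was the rarest transcript. It had 4, 1 and 0 counts in saline germ cells and 38, 52 and 40 counts in saline somatic cells. Over the group this was 5 counts against 130, a ratio of somatic to germ rates of 23.7 with a 95% exact interval of 9.89 to 74.1 that covers counting error only. In dex the counts were 9, 1 and 3 in germ cells and 22, 35 and 24 in somatic cells, a ratio of 6.75 with an interval of 3.74 to 13.2. Both differences passed (edgeR adjusted p = 0.000113 in saline and 0.00369 in dex). The fitted log2 fold change of germ over somatic cells was not stable in size. Over 13 alternatives each it ran from -6.08 to -0.72 in saline and from -3.94 to -0.47 in dex. The values -0.72 and -0.47 came from limma on log2(FPKM + 1), where the added 1 is above the somatic means of 0.69 and 0.49 FPKM. Fits on counts by edgeR or DESeq2 ran from -6.08 to -4.10 in saline and from -3.94 to -2.30 in dex. A somatic level of 1.93 to 2.28 CPM in saline was low beside every other member, and germ libraries were near the 0.119 to 0.163 CPM that 3 counts represent.

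Dyrk1a (ENSMUSG00000022897, chromosome 16, 94570010 to 94695517, plus strand) stood at 169.3, 173.8 and 166.2 CPM in saline germ libraries against 93.4, 106.4 and 83.9 CPM in saline somatic cells. The germ level was 1.79-fold higher and the libraries did not overlap (log2 fold change 0.84 ± 0.09, edgeR adjusted p = 4.63e-06). In dex the values were 157.7, 177.7 and 154.8 CPM against 83.4, 79.1 and 84.9 CPM, and the log2 fold change was 0.98 ± 0.08 (edgeR adjusted p = 3.46e-07).

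The dex libraries repeated the comparison in 6 samples that the saline test did not use. All 8 genes were called there, 4 higher in each population, beside 76.3% of all genes tested, 40.5% upward in germ cells and 35.7% upward in the soma. Groups were apart for all 8, against 79.9% of genes. The direction of each of the 8 differences was the same in saline and dex and under every alternative run.

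**Figure D2:**
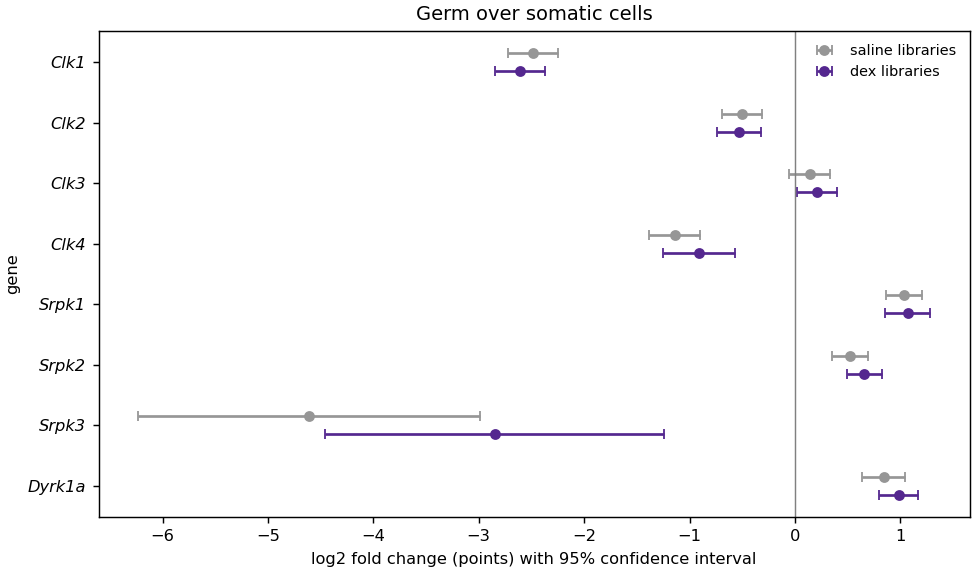
Log2 fold change of germ over somatic cells for each kinase gene, with its 95% confidence interval from edgeR, in saline (grey) and dex (purple) libraries. Clk1, Clk2, Clk4 and Srpk3 lie left of 0 (higher in somatic cells) and Srpk1, Srpk2 and Dyrk1a right of 0 in both sets, while the saline interval of Clk3 runs from -0.05 to 0.33 across 0.

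Levels of different genes can be compared only per length of transcript, and FPKM gives that. In saline germ cells Dyrk1a (20.96 ± 0.42 FPKM, SD, n = 3) and Srpk1 (19.1 ± 0.34) led, followed by Clk2 at 12.1 ± 0.41. Srpk2 (10.2 ± 0.30) and Clk3 (9.53 ± 0.49) did not differ beyond their spread, nor did Clk1 (6.60 ± 0.57) and Clk4 (6.37 ± 0.46). Srpk3 came last, at 0.0276 ± 0.0327 FPKM. In saline somatic cells Clk1 led at 34.1 ± 4.78 FPKM, ahead of Clk2 at 15.7 ± 1.13. Clk4 (12.9 ± 1.51) overlapped Dyrk1a (10.7 ± 1.01), and Srpk1 (8.55 ± 0.59) overlapped Clk3 (7.95 ± 0.62), before Srpk2 at 6.50 ± 0.27 and Srpk3 at 0.69 ± 0.048. Clk1 was thus first in somatic cells and among the lowest in germ cells.

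By family, the 4 CLK genes summed to 34.6 ± 0.89 FPKM in saline germ cells and 70.6 ± 7.97 FPKM in saline somatic cells. The 3 SRPK genes summed to 29.3 ± 0.46 FPKM and 15.7 ± 0.32 FPKM in the same groups. The CLK sum was above the SRPK sum in both populations, but the CLK sum was higher in somatic cells and the SRPK sum higher in germ cells. The sum over all 8 genes was closer, at 84.8 ± 1.56 FPKM in germ cells and 97.1 ± 7.19 FPKM in somatic cells.

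The order of levels depended on what counts as the length of a gene. The length behind the deposited FPKM is the union of all annotated exons, and for these genes it includes transcript models that keep introns. In GENCODE M21, whose gene coordinates matched the files for all 8, Clk1 has 13 transcripts, of which 1 is protein coding and 7 are retained-intron models. Its length of 8132 bases compares with 1796 bases for the coding transcript, and 77.9% of its exon bases lie outside coding transcripts. That share was 62.2% for Clk4, 58.4% for Clk3, 56.8% for Clk2, 50.1% for Srpk1, 48.2% for Srpk2, 28.8% for Srpk3 and 23.4% for Dyrk1a. The 4 largest shares were those of the CLK genes.

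Dividing by the longest coding transcript instead, a choice made after seeing the data, changed the order in germ cells. Per kb of that transcript, Srpk1 led saline germ cells at 52.2 ± 0.85 counts scaled to library totals as CPM, and Clk3 was next at 33.2 ± 1.62. Dyrk1a (30.9 ± 0.45), Clk1 (30.8 ± 2.74) and Clk2 (30.6 ± 0.97) then overlapped, ahead of Srpk2 (22.5 ± 0.48) and Clk4 (19.5 ± 1.47). In saline somatic cells Clk1 stayed first, at 157.7 ± 23.02, ahead of Clk2 (39.4 ± 3.10) and Clk4 (39.3 ± 4.84), which overlapped. The scale assumes that all reads came from the coding transcript, so FPKM and this value are 2 views of the same counts, and neither says which isoforms were present.

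**Figure D3:**
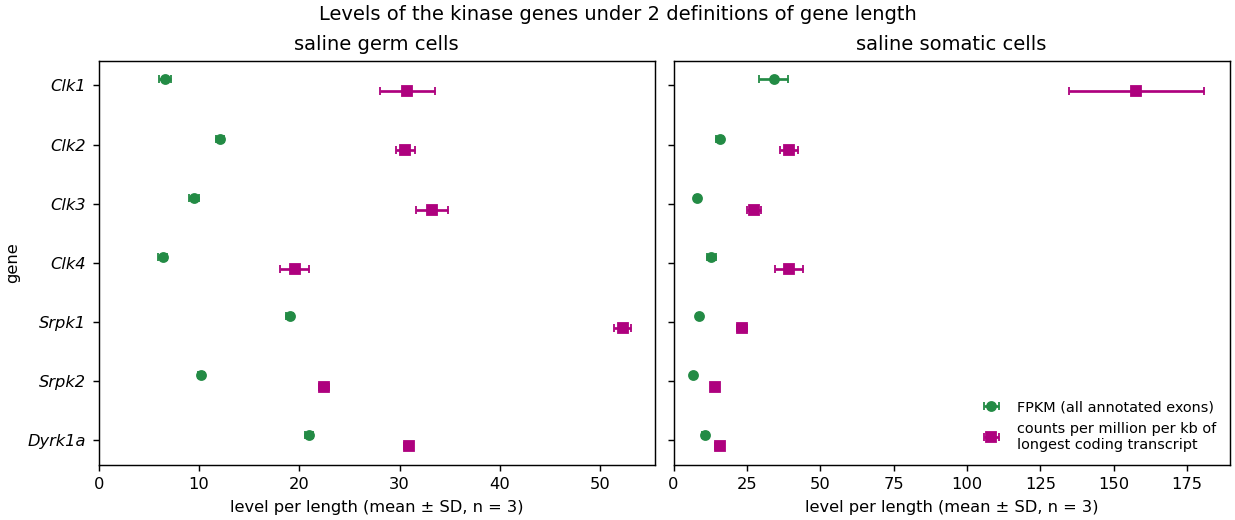
Level per length of 7 kinase genes in saline germ cells (left) and saline somatic cells (right), as FPKM over all annotated exons (circles) and as CPM of library totals per kb of the longest coding transcript (squares), each as mean ± SD of 3 libraries on axes that start at 0. Clk1 moves from 6.60 to 30.8 in germ cells, level with Dyrk1a and Clk2, and is highest in somatic cells on both scales; Srpk3, under 1 on both, is left out.

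In germ cells, none of the kinase transcripts was called after dex, in a comparison that shares its saline libraries with that of the populations above. edgeR tested 7 of the 8 genes, Srpk3 being under the filter on low counts, and 0 passed at an adjusted p of 0.05. At an unadjusted p under 0.05 there were 0 as well, and DESeq2 called 0. Among all genes tested, 1.25% were called by edgeR and 4.55% by DESeq2, and 14.75% had an unadjusted p under 0.05. Counts of 0 among 7 genes are near this background. Taken gene by gene, the 95% confidence intervals of the 7 log2 fold changes reached down to -0.48 (Clk1) and up to 0.41 (Clk4).

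Clk1 had the largest of the differences in germ cells, with a log2 fold change of dex over saline of -0.23 ± 0.12 (edgeR adjusted p = 0.382, interval -0.48 to 0.02). Its dex libraries (52.3, 42.2 and 41.04 CPM) overlapped its saline libraries (56.4, 54.5 and 47.2 CPM). Clk2 stood at 56.8, 57.8 and 54.1 CPM with dex and 60.2 to 64.95 CPM with saline, so every dex library lay below every saline library. Its log2 fold change was -0.17 ± 0.09 (edgeR adjusted p = 0.413), which the test did not separate from the spread. Srpk1 was the other gene without overlap, at 219.3 to 225.6 CPM with dex and 225.8 to 236.1 CPM with saline (-0.07 ± 0.06, edgeR adjusted p = 0.688). Groups without overlap were found for these 2 of 7 genes and for 20.0% of all genes tested.

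The remaining 4 genes overlapped between dex and saline germ cells. Clk4 had a log2 fold change of 0.09 ± 0.15 (edgeR adjusted p = 0.838), which became -0.09 without dex germ replicate 1, the library with the highest level. Srpk2 gave 0.09 ± 0.07 from dex levels of 152.7, 141.5 and 151.1 CPM (edgeR adjusted p = 0.627). Clk3 and Dyrk1a gave -0.04 ± 0.08 and -0.06 ± 0.07 (edgeR adjusted p = 0.885 and 0.761). Srpk3 had 13 counts over the dex germ libraries, 9 of them in replicate 1, and 5 over the saline germ libraries, too few to compare. The 8 Sertoli cell markers, all detected, summed to 76.2 to 90.9 CPM in saline germ libraries and to 50.8 to 60.9 CPM in dex germ libraries. Without overlap too, 6 Leydig cell markers summed to 8.86 to 11.6 CPM in saline and 4.70 to 8.62 CPM in dex, 6 erythroid markers to 7.52 to 9.06 and 4.33 to 6.88 CPM (Hba-a2 at 0 in both), and 6 macrophage markers, the other way, to 9.28 to 13.02 and 14.6 to 16.9 CPM. The part of these cell types in the dex values of the kinases was not tested.

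In somatic cells, likewise, 0 of 8 kinase genes were called by edgeR, 0 had an unadjusted p under 0.05, and DESeq2 called 0. Of all genes tested, edgeR called 3.91% and DESeq2 5.65%, and 16.1% had an unadjusted p under 0.05. All 8 log2 fold changes of dex over saline were negative, with a median of -0.09 beside -0.01 for all genes, and each interval included 0. Scaling by library totals in place of TMM shifted the median of all genes to -0.07. With certain single libraries left out, Srpk1 and Srpk2 turned positive, to at most 0.03 and 0.02. Dyrk1a came nearest to the threshold, at 83.4, 79.1 and 84.9 CPM with dex and 93.4, 106.4 and 83.9 CPM with saline (-0.17 ± 0.09, edgeR adjusted p = 0.404, interval -0.36 to 0.03). One saline library of Dyrk1a lay within the dex range. Clk1, the leading kinase of these cells, gave -0.08 ± 0.10 (edgeR adjusted p = 0.786), with an interval of -0.29 to 0.14. Clk4 gave -0.11 ± 0.10, Clk2 -0.10 ± 0.10, Clk3 -0.08 ± 0.10, Srpk1 -0.07 ± 0.10 and Srpk2 -0.01 ± 0.08, all with overlapping libraries.

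Srpk3 was the one kinase whose somatic libraries did not overlap, with 22, 35 and 24 counts after dex and 38, 52 and 40 after saline. Its level was 1.41 ± 0.32 CPM with dex and 2.05 ± 0.20 CPM with saline (SD, n = 3). At these counts the log2 fold change of -0.51 ± 0.48 did not pass (edgeR adjusted p = 0.678), and its interval ran from -1.53 to 0.52. Groups were without overlap for 21.3% of all genes tested. Marker levels of other cell types also moved in these libraries. The summed level of 7 peritubular and stromal markers, all detected, was 8543 to 9882 CPM with dex and 5145 to 6812 CPM with saline, and that of 6 macrophage markers, all detected, was 21.5 to 30.6 CPM and 48.1 to 80.4 CPM. Their part in the somatic values was not tested.

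**Figure D4:**
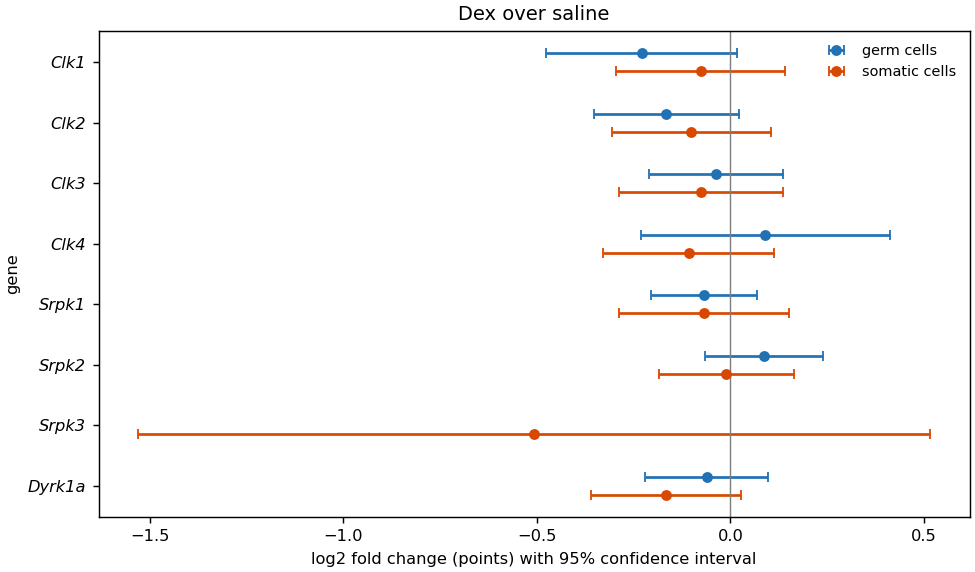
Log2 fold change of dex over saline for each kinase gene in germ cells (blue) and somatic cells (orange), with 95% confidence intervals from edgeR. Every interval crosses 0, and Srpk3, tested in somatic cells alone, has the widest, from -1.53 to 0.52.

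The dex effects in the 2 populations were compared directly over all 12 libraries. None of the 8 differences was called by edgeR or DESeq2, 0 had an unadjusted p under 0.05, and edgeR adjusted p ran from 0.552 to 0.995. Of all genes tested, 0.827% were called by edgeR and 3.37% by DESeq2, and 13.3% had an unadjusted p under 0.05. Counts of 0 among 8 genes are near these shares. The difference, germ minus somatic, was 0.23 ± 0.20 for Clk4 (interval -0.19 to 0.65) and -0.12 ± 0.15 for Clk1 (interval -0.45 to 0.20). For Srpk3 it was 1.77 ± 1.15, with an interval of -0.66 to 4.20 that reflects its few germ cell counts.

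A share between paralogs within one library does not depend on the scaling of libraries. Srpk1 made up 65.9%, 65.2% and 64.4% of the summed FPKM of Srpk1 and Srpk2 in saline germ cells and 62.4%, 63.5% and 62.2% in dex germ cells. The dex libraries all lay lower, with a mean difference of -2.46 percentage points. An exact two-sided permutation test gave p = 0.10, the smallest that 3 against 3 libraries allow, and 0.171 after Benjamini-Hochberg adjustment over the 12 share comparisons. In somatic cells the share was 54.5%, 56.1% and 59.8% with saline and 51.8%, 55.4% and 59.8% with dex (exact permutation p = 0.80).

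The share of Clk1 in the summed FPKM of Clk1 and Clk4 was 51.0%, 51.1% and 50.4% in saline germ cells, the same within 1 percentage point. With dex it was 43.6%, 43.5% and 50.1%, so replicates 1 and 2 stood well below saline and replicate 3 next to it. The difference of -5.12 percentage points had an exact permutation p of 0.10, adjusted to 0.171, and was -7.29 points without dex germ replicate 3. In somatic cells Clk1 held 71.9% to 73.0% with saline and 71.6% to 74.2% with dex, all above every germ library. The difference between saline germ and somatic cells was -21.6 points (exact permutation p = 0.10, adjusted 0.171). These shares rest on the FPKM lengths, and with the coding transcript as length the mean share of Clk1 was 61.2% in saline germ cells in place of 50.8%, 56.2% in dex germ cells and 80.4% in dex somatic cells.

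**Figure D5:**
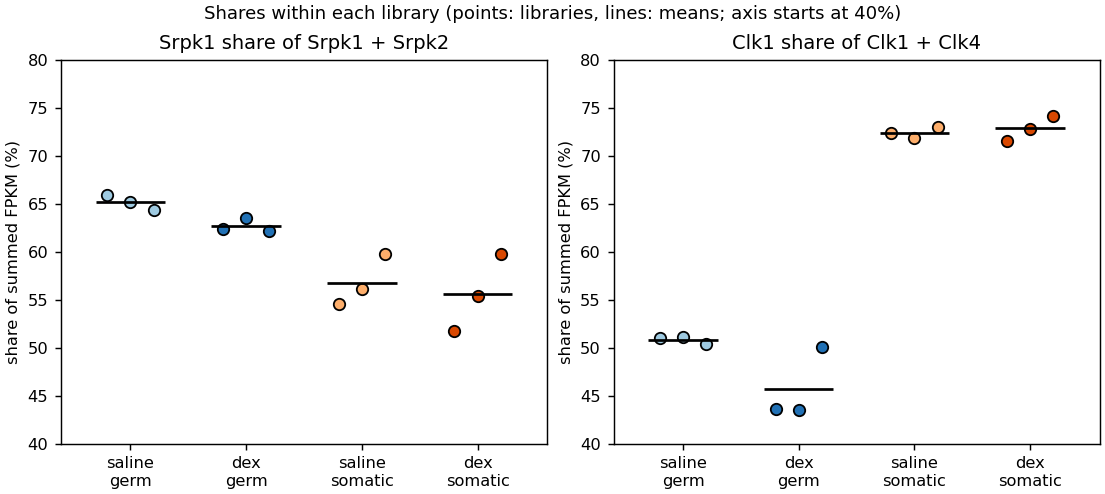
Share of Srpk1 in the summed FPKM of Srpk1 and Srpk2 (left) and of Clk1 in that of Clk1 and Clk4 (right), in percent, with 1 point per library and a line for each group mean, on an axis from 40% to 80%. Dex germ libraries lie under saline germ libraries in both panels, with dex replicate 3 at 50.1% for Clk1 beside saline at 50.4%.

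The kinases were next set against their substrates. The 13 SR proteins summed to 736.7 ± 21.4 FPKM in saline germ cells and 657.6 ± 21.7 FPKM in dex germ cells, while the 8 kinases summed to 84.8 ± 1.56 and 83.0 ± 3.38 FPKM. Kinase FPKM per 100 of SR protein FPKM was 11.6, 11.4 and 11.6 in saline germ cells and 13.4, 12.9 and 11.6 in dex germ cells, which did not overlap before rounding (exact permutation p = 0.10, adjusted 0.171). In somatic cells the values were 13.3, 11.3 and 12.7 with saline and 12.1, 12.9 and 12.5 with dex (exact permutation p = 0.90).

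Other genes around these kinases were counted from 5 fixed lists. Of the 13 SR proteins, 1 was called in germ cells after dex: Srsf7, a shuttling SR protein, fell from 196.4 ± 15.0 to 149.5 ± 7.61 CPM (log2 fold change -0.40 ± 0.08, edgeR adjusted p = 0.0224). With 1 library left out at a time its edgeR adjusted p ran from 0.0157 to 0.134. For 12 of the 13 the log2 fold change was negative, with a median of -0.17 beside 0.00 for all genes, and 7 had an unadjusted p under 0.05, while DESeq2 called 2. Of all genes tested in germ cells, 14.7% had an unadjusted p under 0.05, and edgeR called 1.25% and DESeq2 4.55%. Among 21 other RS-domain splicing proteins 0 were called and 20 were negative (median -0.15, 8 with an unadjusted p under 0.05, DESeq2 3). For the kinases themselves the median was -0.06. None of 12 related CMGC-group kinases, 11 SRPK partners and import factors and 8 phosphatase genes (catalytic or regulatory) was called in germ cells. Of these lists, 2, 3 and 1 genes had an unadjusted p under 0.05 (against the same 14.7% of all genes). DESeq2 called 0, 2 and 0. In somatic cells 0 genes of the 5 lists were called by edgeR or DESeq2. Of these lists 1, 3, 0, 1 and 0 genes had an unadjusted p under 0.05, against 16.1% of all genes tested there. The shares of all genes called there were 3.91% by edgeR and 5.65% by DESeq2.

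Between populations in saline, edgeR called 76.5% of all genes tested, 39.8% upward in germ cells and 36.7% upward in the soma. The saline counts of the 5 lists are to be read beside these shares. Among the 13 SR proteins, 2 were called upward in germ cells and 7 upward in the soma. Srsf9 (log2 fold change 0.70, edgeR adjusted p = 1.29e-05) and Srsf2 (0.24, edgeR adjusted p = 0.0182) were the 2, and Srsf5 (-1.34) and Srsf6 (-0.85) led the 7. The other RS-domain proteins split evenly, with 7 called each way, led by Rnps1 (1.21) and Scaf11 (1.08) in germ cells and by Snrnp70 (-0.99) and Luc7l3 (-0.88) in somatic cells. Related kinases also split, 5 each way. Dyrk3, a kinase that dissolves RNA-protein condensates, was higher in germ cells (1.97) and Dyrk2 in somatic cells (-1.67).

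Dyrk4 had 27 to 43 counts in saline germ libraries and 0 counts in all somatic libraries. That is at least 11.9-fold higher against a floor of 3 counts per library. Hipk4 was higher in somatic cells (-1.31), with mean saline levels of 6.45 CPM there and 2.60 CPM in germ cells.

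Of the SRPK partners and import factors, 6 were higher in germ cells and 5 in somatic cells. Hsp90aa1, a chaperone that binds SRPKs, stood at 2370.0 ± 58.8 CPM in germ libraries against 737.5 ± 43.7 CPM in somatic cells (log2 fold change 1.68). Akt1, whose protein activates SRPKs in growth factor signaling, was higher in somatic cells (-1.83), as was Safb2 (-0.61). Of the phosphatase genes, catalytic or regulatory, 4 were higher in germ cells and 1 in somatic cells. Ppp1r8 (1.16), which encodes a regulatory subunit, and Ppm1g (1.04) were ahead, and Ppp2ca (-0.45) was the one lower. In dex the called SR proteins were again 2 and 7, the other RS-domain proteins 7 and 8, and the related kinases 6 and 5. Called partners were 3 and 5, and phosphatase genes 7 and 1. For all genes tested in dex the shares called were 40.5% and 35.7%. Tnpo3, the import receptor of SR proteins, was among the 3 partners higher in dex germ cells (0.90).

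The genes whose pattern over the 12 libraries was most like that of a kinase were sought among 11474 protein-coding genes for the 3 kinases with the widest range of group means. The genes searched had an average log2 CPM of at least 2, which Srpk3 itself did not reach. The measure was the root mean square difference of log2 CPM, each gene centred on its own mean. For Clk1 the nearest were BC017158 (0.11), Ripk1 (0.12) and Tia1 (0.12), the last a splicing regulator at 25.1 CPM in saline germ libraries against 145.1 CPM in saline somatic cells. For Srpk1 they were Tmem201 (0.08), Rsl1d1 (0.08) and Cstf2 (0.08), and Cstf2, a factor of mRNA 3′ end cleavage, stood at 152.8 CPM in saline germ libraries against 72.6 CPM in saline somatic cells. For Srpk3 the nearest, Stk26, Mfap3l and Alkbh8, lay much farther off (0.44 to 0.46). Srpk3 had 0 to 9 counts in germ libraries, so counting error adds to these distances. Genes as low as Srpk3 were not searched, and how far that adds to them was not measured. The 12 points share their 2 sorted populations and are described without a test.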

How the data were processed

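RNA-seq libraries were grouped by their labels (3 per group). The authors aligned paired reads to mm10 with HISAT2 2.0.5 and counted them per gene with featureCounts 1.5.0-p3. The deposited counts are raw, and the FPKM values deposited beside them are counts scaled to gene length and library size. Tables of the authors' own fold changes and p-values (DESeq2 1.20.0) were not used. The strand setting and annotation release are not given in the sources used here.

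Counts were fitted over all genes with edgeR 4.0.16 (R 4.3.3; TMM, filterByExpr at a minimum count of 10, quasi-likelihood test, Benjamini-Hochberg adjustment, called at 0.05), with the 6 libraries of a comparison alone, and all 12 for the difference of dex effects. Alternatives were DESeq2 1.42.0, limma 3.58.1 on log2(FPKM + 0.1) or (FPKM + 1), library totals, other filters, a replicate block and leaving out each library. Shares of FPKM were compared by exact two-sided permutation. The edgeR step was checked on simulated counts. In the text, SE belongs to log2 fold changes and SD to group means.

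The rule for naming genes took all 8 kinases, every listed gene called after dex (at most 4 a list), and the 2 largest called each way between populations per list. The values of 1 gene that the rule names are not reported here. The members and lists were chosen with earlier results of these data known. RefSeq promoters and GENCODE M21 gave sequences and gene models. Totals of 18459692 to 25178477 counts put 3 counts at 0.119 to 0.163 CPM, and such floors cover counting error only.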

Additional observations from a re-analysis of the deposited data

How the results depend on the processing

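The counts of kinase genes called moved by at most 1 under every alternative, with 0 in both dex comparisons and in the difference of dex effects throughout. In saline, germ against somatic cells, DESeq2, library totals and limma on FPKM called 8 in place of 7, the gained gene being Clk3 (adjusted p 0.0416, 0.0166, 0.0328 and 0.0324). The filter of 10 counts in every library left Srpk3 untested in both comparisons of populations (6 and 7 called). Deviations of same-numbered replicates correlated only weakly (r from -0.088 to 0.044). The labels do not say whether equal numbers mark the same pool. The main fits therefore treated the samples as unpaired, but these values cannot exclude pairing. In saline each library correlated best with its own number across populations, a hint from the data and not from the design. With the replicate block the counts of kinases called were 0, 0, 7, 7 and 0, and the gene lost was Clk3 in dex (edgeR adjusted p = 0.0856). Leaving out single libraries turned small values that had not passed. With 1 library left out, the log2 fold change of Clk4 after dex in germ cells ran from -0.094 (without dex germ replicate 1) to 0.257. In somatic cells that of Srpk1 ran from -0.167 to 0.0299 and that of Srpk2 from -0.039 to 0.0196. In the difference of dex effects Clk2 ran from -0.0975 to 0.0159 and was 0.0178 with library totals, and Srpk1 ran from -0.0773 to 0.141. For Clk1 as a share of Clk1 and Clk4, saline germ minus somatic was -19.5 points from raw counts and -18.8 with coding lengths (chosen after seeing the data). The somatic dex differences in shares, with 1 library left out, ran from -3.22 to 0.775 for Srpk1 and from -0.21 to 1.08 for Clk1. Kinase FPKM per 100 of SR protein FPKM depended on what was summed. For dex minus saline in germ cells it was 2.72 from raw counts and 2.28 without the 3 most abundant SR proteins (chosen after seeing the data), against 1.13, and with 1 library left out it ran from 0.732 (without dex germ replicate 1) to 1.63 (without dex germ replicate 3). For saline germ minus somatic it was -0.92, but 3.52 from raw counts, 4.42 without those 3 and -2.39 without Dyrk1a. For dex germ minus somatic it was 0.15, but 5.83, 6.38 and -1.65. With 1 library left out its somatic dex difference ran from -0.528 to 0.493 and its dex germ minus somatic difference from -0.245 to 0.656. The causes were not tested. Depth limits Srpk3 alone, whose germ libraries held 0 to 9 counts.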
